A study of Mus musculus with 6 samples.

Results

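T cells were found by their transcripts in single-cell libraries of mouse lung from which white blood cells had been sorted away. They were chosen by the number of genes detected per cell barcode, namely at least 2 of *Cd3e*, *Cd3d*, *Cd3g*, and *Trbc2*, of which at least 1 had to be a *Cd3* gene, with at most 1 of 3 B cell genes (*Cd79a*, *Cd79b*, *Ms4a1*) and at most 1 of 5 endothelial genes (*Pecam1*, *Cdh5*, *Cldn5*, *Tie1*, *Egfl7*). Of 43545 deposited barcodes, 38208 had at least 500 genes and at most 10% mitochondrial UMIs (unique molecular identifiers, each of which counts 1 captured RNA molecule), and 140 of these were T cells. Nearly all of them, 127 of 140 or 90.7%, came from a single library, that of TNF-Tg mice of 20 weeks. A further 11 were in WT libraries and 2 in the TNF-Tg library of 14 weeks.

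The 6 libraries comprised 1 for littermate WT controls and 1 for TNF-Tg mice at each of 8, 14, and 20 weeks of age. TNF-Tg mice carry a human TNF transgene, are chronically inflamed, and develop pulmonary hypertension. The promoter of the transgene is not given in the sources used here, and the labels do not state the strain of the sequenced mice. Each library pooled the lungs of several female mice, which cannot be told apart within a pool, so a value from 1 library has no replicate. Cells were sorted as negative for CD45 (the pan-leukocyte surface protein), CD326 (an epithelial protein), and the dead-cell dye 7-AAD, and are labelled non-immune. The T cells therefore go against that label, and their numbers describe what passed the sort and not the T cell content of the lung. The median kept barcode held 4455 to 4766 UMIs in WT and 9179 to 9808 UMIs in TNF-Tg libraries. Pairs of libraries shared 6 to 24 barcode sequences, and none of the T cell barcodes recurred in another library.

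As background, a T cell recognizes antigen through a receptor made of either an alpha and a beta chain or a gamma and a delta chain. The chains have short tails, so CD3 gamma, delta, and epsilon and the zeta chain (*Cd247*) carry the signal inward to the kinases LCK and ZAP70 and the adaptor LAT. Conventional alpha-beta T cells use CD4 or CD8 as a co-receptor, regulatory T cells depend on the transcription factor FOXP3, and gamma-delta T cells are common in barrier tissues such as lung, where some of them produce interleukin-17.

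The *Cd3* genes that chose the cells lie side by side on mouse chromosome 9 (GRCm38, GENCODE vM21). *Cd3g* (ENSMUSG00000002033) spans 44969572 to 44980431 on the minus strand, *Cd3d* (ENSMUSG00000032094) spans 44981786 to 44987339 on the plus strand, and *Cd3e* (ENSMUSG00000032093) spans 44998740 to 45009627 on the minus strand. The start sites of *Cd3g* and *Cd3d* face away from each other and are 1355 bases apart. *Trbc2* (ENSMUSG00000076498), a constant gene of the beta chain, is on chromosome 6 from 41546730 to 41548352. The 250 bases before each *Cd3* start site are shown because these genes define the cells and were detected together in them. They are RefSeq windows on GRCm38.p6, read 5′ to 3′ on the strand of the gene, and capitals mark matches on either strand to TGTGGT for RUNX, AGGAAG for ETS, CTTTGA for TCF/LEF, AGATAA for factors of the family named GATA, or CAGCTG for E-box proteins, all of them transcription factor families active in T cells:
Cd3g, chr9:44980432-44980681, minus strand: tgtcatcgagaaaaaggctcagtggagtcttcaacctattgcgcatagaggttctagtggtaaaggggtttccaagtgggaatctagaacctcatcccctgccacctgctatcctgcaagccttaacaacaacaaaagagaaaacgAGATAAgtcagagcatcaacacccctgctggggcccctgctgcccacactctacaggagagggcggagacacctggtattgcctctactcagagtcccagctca
Cd3d, chr9:44981536-44981785, plus strand: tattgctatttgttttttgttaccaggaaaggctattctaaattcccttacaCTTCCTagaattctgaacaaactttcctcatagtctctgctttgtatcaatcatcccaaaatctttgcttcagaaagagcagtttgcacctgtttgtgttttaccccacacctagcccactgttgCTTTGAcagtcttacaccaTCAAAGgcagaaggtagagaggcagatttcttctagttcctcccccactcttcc
Cd3e, chr9:45009612-45009861, minus strand: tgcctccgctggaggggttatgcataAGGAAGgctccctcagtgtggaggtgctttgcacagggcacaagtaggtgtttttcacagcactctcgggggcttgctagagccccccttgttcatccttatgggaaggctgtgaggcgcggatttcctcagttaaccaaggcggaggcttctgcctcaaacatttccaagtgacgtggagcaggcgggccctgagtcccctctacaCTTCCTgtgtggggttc
The *Cd3g* window held 1 GATA match, the *Cd3d* window held 1 ETS and 2 TCF/LEF matches, and the *Cd3e* window held 2 ETS matches. Over all 32851 windows of the table, 29.5% held the ETS letters, 14.1% the RUNX letters, 13.8% the TCF/LEF letters, 13.0% the E-box letters, and 9.99% the GATA letters. Of the 20 leading genes described below, 13 had windows, 18 in number, and the shares were 50%, 22.2%, 27.8%, 5.56%, and 5.56% in the same order. A match is a description of the letters and not a binding site.

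T cells made up 2.0% of kept barcodes in the TNF-Tg library of 20 weeks (127 of 6345, exact 95% interval 1.67% to 2.38%). In the WT libraries they numbered 6 of 6430 at 8 weeks (0.0933%, interval 0.0343% to 0.203%), 4 of 6051 at 14 weeks (0.0661%, 0.0180% to 0.169%), and 1 of 6961 at 20 weeks (0.0144%, 0.000364% to 0.0800%). The TNF-Tg library of 8 weeks held 0 of 6604 (0%, 0% to 0.0558%), and that of 14 weeks held 2 of 5817 (0.0344%, 0.00416% to 0.124%). Only the TNF-Tg library of 20 weeks had an interval above those of all other libraries, and the other TNF-Tg libraries were not above WT. Intervals cover counting error only, not differences between mice or sorts.

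**Figure D1:**
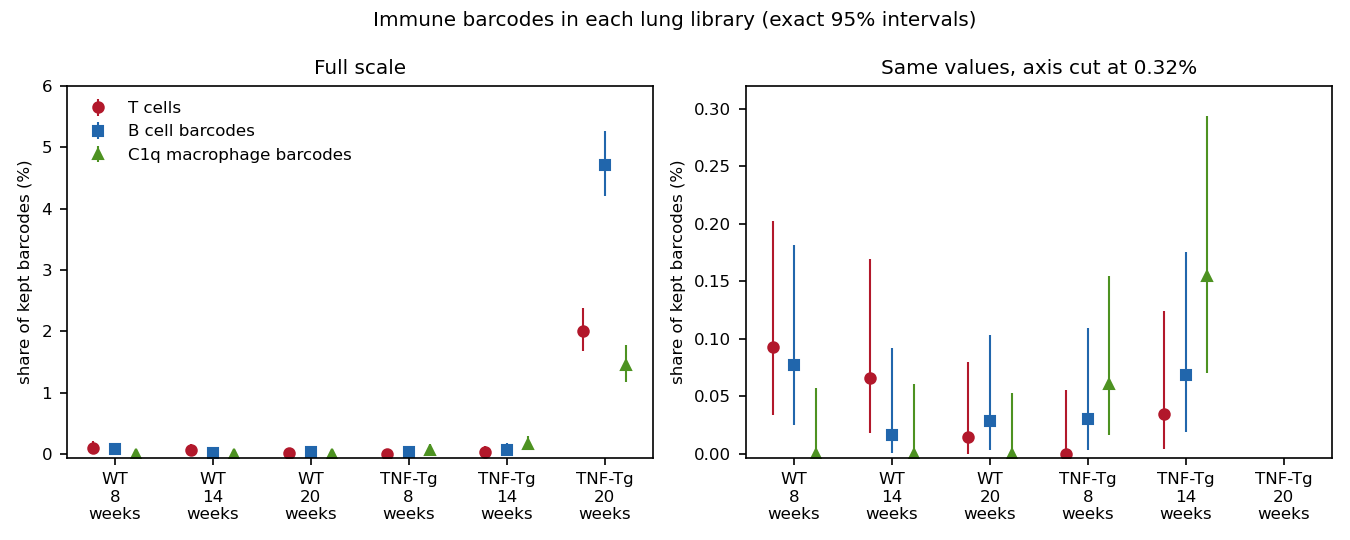
T cells, B cell barcodes, and C1q macrophage barcodes as a percentage of kept barcodes in each of the 6 libraries (points, exact 95% intervals), on the full scale and with the axis cut at 0.32%. T cells stand at 2.0% in the TNF-Tg library of 20 weeks and at most at 0.0933% in the other 5 libraries.

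The question of whether T cells were more frequent in TNF-Tg than in WT libraries was tested over the libraries. TNF-Tg libraries held on average 0.679% ± 1.15 T cells and WT libraries 0.0579% ± 0.0401 (SD, n = 3 libraries for each genotype), a difference of 0.621 percentage points that lay within the spread between libraries (two-sided exact permutation test, p = 0.9, where 0.1 is the smallest p possible with 3 libraries against 3). The 3 libraries of a genotype differed in age, so their spread includes age. The share was known in part beforehand, so the p is a description of the design. The difference rested on 1 library. With the 20-week TNF-Tg library left out, the difference became -0.0407 points.

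B cell barcodes (at least 2 of the 3 B cell genes, with at most 1 T cell marker and 1 endothelial gene) and C1q macrophage barcodes (at least 2 of *C1qa*, *C1qb*, and *C1qc*, with the same limits) also peaked in that library, at 299 barcodes (4.71%, 4.20% to 5.26%) and 92 barcodes (1.45%, 1.17% to 1.78%). There were 0.425 T cells per B cell barcode. The TNF-Tg library of 8 weeks held 4 C1q macrophage barcodes and no T cell, and that of 14 weeks held 9 and 2. A difference in course with age between the cell types was not tested.

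Most T cells passed the marker limit with room to spare. In the TNF-Tg library of 20 weeks, 87 of 127 had all 4 markers, 31 had 3, and 9 had 2. Just outside, 36 barcodes had 1 marker with the other limits met, of which 1 held *Trac* (the alpha chain constant gene), 13 *Trbc1*, and 5 *Lck*, against 5, 6, and 5 of the 9 members with 2 markers. At the endothelial limit, 42 T cells had 1 endothelial gene, and 16 barcodes with the T cell markers were left out for having 2 or more, at a median of 9819 UMIs. Of the 9 left out with exactly 2 endothelial genes, 8 held *Trac*, as did 29 of the 42 with 1. At the B cell limit, 18 T cells had 1 of the genes and 1 barcode was left out for 2 or more.

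The T cells of the TNF-Tg library of 20 weeks held a median of 4667 UMIs (1236 to 23387), 1536 genes, and 3.70% mitochondrial UMIs, and 684721 UMIs in sum. B cell barcodes had 4556 UMIs, C1q macrophage barcodes 13204, and endothelial barcodes (at least 3 of the 5 endothelial genes and no T cell marker, n = 4077) 9700. Values below are from this library unless another is named. Levels are in CPM (UMIs per 1000000 UMIs of the T cell sum) with exact Poisson 95% intervals, and shares are cells with at least 1 UMI of 127, with exact 95% intervals. The share of endothelial barcodes with a UMI is given beside it as the background in cells that should lack the gene, at the greater depth of those barcodes. A gene at 0 of 127 T cells could still be detectable in up to 2.86% of them.

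*Cd3g* and *Cd3d* were each detected in 122 of 127 T cells, *Trbc2* in 118, and *Cd3e* in 97, values fixed in part by the rule. Genes that the rule did not use were detected in the same cells. *Trac* was detected in 93 cells (73.2%, 64.6% to 80.7%) against 0.392% of endothelial barcodes and 0 of the B cell barcodes. *Trbc1*, the other beta chain constant gene, was detected in 69 (54.3%). Its coding sequence is nearly identical to that of *Trbc2*, so reads of the pair can be split uncertainly. Only 10 T cells had none of *Trac*, *Trbc1*, and *Trdc*, and their median was 3166 UMIs.

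The signalling genes *Lck* and *Lat* were each found in 85 cells (66.9%), the adaptor gene *Skap1* in 89 (70.1%), and *Zap70* in 45. *Bcl11b*, a transcription factor that maintains T cell identity, was found in 79 (62.2%), and *Il7r*, the receptor for the survival cytokine interleukin-7, in 92 (72.4%, 683 CPM, 623 to 748). Each of these was in under 1% of endothelial barcodes. *Ptprc*, the gene for CD45 (chromosome 1, 138062861 to 138175708), was detected in 109 T cells (85.8%, 78.5% to 91.4%) although the sort had selected against the protein, against 1.86% of endothelial, 75.9% of B cell, and 80.4% of C1q macrophage barcodes. The actin-binding leukocyte gene *Coro1a* was in 125 T cells (98.4%).

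By the ratio of CPM over all other kept barcodes of the library, the 20 leading genes with at least 100 CPM in at least 10% of T cells were, ranked with 1 UMI added to each sum, *Cd3e*, *Cd6*, *Cd3g*, *Cd3d*, *Tcrg-C1*, *Trdc*, *Trbc2*, *Bcl11b*, *Trac*, *Tnfrsf4*, *Cxcr6*, *Trbc1*, *Cxcr3*, *Lef1*, *Il7r*, *Lat*, *Xcl1*, *Zap70*, *Ms4a4b*, and *Skap1*. The ratios ran from 118 for *Skap1* to 649 for *Cd6*, a surface receptor of T cells. Of the 20, 4 belong to the rule. Alongside receptor genes, the list held the costimulatory receptor gene *Tnfrsf4* (OX40, 221 CPM in T cells and 0.877 CPM in the others), the chemokine receptor genes *Cxcr6* (358 and 1.44 CPM) and *Cxcr3* (102 and 0.561 CPM), and the gamma-delta constant genes *Trdc* (302 and 0.647 CPM) and *Tcrg-C1* (114 and 0.230 CPM).

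**Figure D2:**
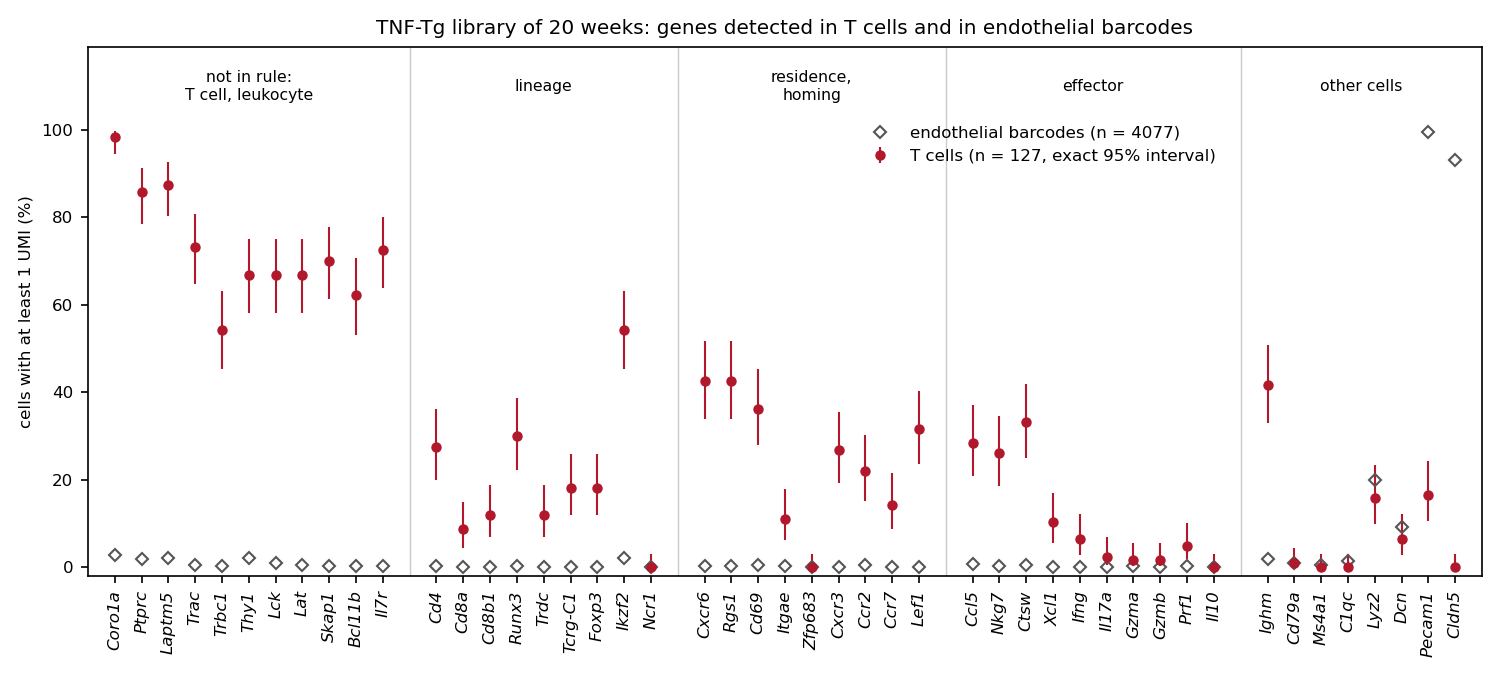
Percentage of T cells (n = 127, exact 95% intervals) and of endothelial barcodes (n = 4077) of the TNF-Tg library of 20 weeks with at least 1 UMI of each gene. T cell and leukocyte genes outside the rule, from *Trbc1* at 54.3% to *Coro1a* at 98.4%, lie far above endothelial barcodes, while *Ncr1*, *Zfp683*, *Il10*, *Ms4a1*, *C1qc*, and *Cldn5* are at 0 in T cells.

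Lists of genes were compared with endothelial barcodes of the same library by a fold of 4 in CPM, with 1 UMI added to each sum, over the 8196 genes with at least 15 CPM in either. Among all of these, 7.15% were higher in T cells by that fold and 16.2% were lower, which is the background for the counts of lists that follow. No test can be made from 1 library. All 20 leukocyte and T cell genes outside the rule were higher, as were all 13 genes of T cell receptor signalling. The median log2 ratio was 8.53 and 7.48 for these lists, against -0.32 for all genes compared.

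Genes of other lineages were checked next. The plasma cell genes *Jchain*, *Mzb1*, and *Ighg1*, the macrophage genes *C1qc* and *Cd68*, and the myeloid genes *Itgam*, *Itgax*, *Flt3*, *S100a8*, and *S100a9* had no UMI in any T cell. The rest of these lists was detected, namely 2 of 5 plasma cell, 4 of 6 macrophage, and 2 of 7 myeloid genes. At least 1 gene of the list was in 30, 11, and 43 T cells, and 1 T cell had 2 or more of the macrophage genes. The B cell gene *Ms4a1* and the endothelial gene *Cldn5* were at 0 too, but the definition of a T cell limits genes of both types, so zeros there are fixed in part by it. Within that limit, *Pecam1* was in 21 T cells, *Egfl7* in 16, and *Cd79b* in 17. The natural killer cell receptors *Ncr1* and *Klra8* were at 0, and of 7 natural killer cell genes none reached 10% of T cells. *Klre1* had 29.2 CPM in 7 T cells against 0.460 CPM in endothelial barcodes, and *Klrb1c* 19.0 CPM in 5 T cells against 0.253 CPM. *Lyz2* was in 15.7% of T cells and 19.9% of endothelial barcodes, and the hemoglobin gene *Hbb-bs* in 18.1% and 18.7%. Mesenchymal genes were in 21 T cells, of which 2 had 2 or more of the 8 genes. The 240 UMIs of *Dcn*, a fibroblast proteoglycan gene, came from 8 cells, and a single cell held 126 of them. These genes made up at most 0.980% of the UMIs of a T cell. Among the 67 T cells with no endothelial, mesenchymal, or C1q macrophage marker gene, 23.9% (16 cells) held *Cd4* and no *Cd8* gene, 13.4% (9 cells) a *Cd8* gene and no *Cd4*, 19.4% (13 cells) *Foxp3*, and 7.46% (5 cells) *Trdc*.

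An exception was *Ighm*, the gene for the immunoglobulin M heavy chain. It was detected in 53 T cells (41.7%, 33.0% to 50.8%) at 149 CPM, against 1.74% of endothelial, 90.6% of B cell, and 46.7% of C1q macrophage barcodes. The light chain gene *Igkc* had another pattern, with 15.7% of T cells and 16.8% of endothelial barcodes, and only 1 T cell had both *Ighm* and the B cell receptor gene *Cd79a*. *Cd79b* was in 17 T cells (13.4%), within what the rule allows.

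A co-receptor was detected in the minority of T cells. *Cd4* was found in 35 cells (27.6%, 20.0% to 36.2%), *Cd8b1* in 15 (11.8%, 6.76% to 18.7%), and *Cd8a* in 11 (8.66%, 4.4% to 15%). Cells with *Cd4* and neither *Cd8* gene (Cd4-side) numbered 34 (26.8%, 19.3% to 35.4%), and cells with a *Cd8* gene and no *Cd4* (Cd8-side) numbered 14 (11%, 6.16% to 17.8%). Only 1 cell had both, and 78 (61.4%) had neither. *Cd4* never exceeded 4 UMIs in a T cell, so an undetected *Cd4* does not mark a cell as lacking CD4, and thinning each T cell to 1000 UMIs left 14 Cd4-side cells (11%). The same thinning left 9 Cd8-side cells (7.09%). Before thinning the Cd4-side and Cd8-side intervals did not overlap, but they hold only counting error over cells of 1 library. A difference between these shares was not tested. Median depth was 4365 UMIs in Cd4-side and 6897 UMIs in Cd8-side cells.

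Of genes outside the definition, *Ikzf2*, *Tnfrsf4*, *Foxp3*, *Izumo1r*, *Nrp1*, *Penk*, *Rgs1*, *Fgl2*, and *Mllt3* were most in excess on the Cd4 side. *Ikzf2* (Helios, a transcription factor of many regulatory T cells) had 125 UMIs in 18 of 34 Cd4-side cells and none in 14 Cd8-side cells, and was at least 21.6-fold higher, taking 3 UMIs as the floor for the Cd8-side sum. By the same bound, *Tnfrsf4* was at least 15.7-fold, *Foxp3* at least 5.19-fold, and *Izumo1r* (folate receptor 4) at least 5.02-fold higher. These bounds leave out counting error in the Cd4-side sum. Without the Cd4-side cell with the most UMIs of the gene, they were 19.0 for *Ikzf2*, 10.9 for *Tnfrsf4*, 3.79 for *Foxp3*, and 4.06 for *Izumo1r*. *Rgs1* had 54 UMIs against 1, a ratio of 28.0 (exact 95% counting interval 4.82 to 1127.5). The *Rgs1* ratio was 19.6 (3.29 to 793) without the Cd4-side cell with the most, 18 of 54. Several of these are genes of regulatory T cells.

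On the Cd8 side, the excess was led by *Ly6c2*, *Plac8*, *Klrd1*, *Nkg7*, *Ccl5*, *1110038B12Rik*, *Dapl1*, and *Gramd3*. *Nkg7*, a gene of cytotoxic granules, had 801 CPM in Cd8-side and 39.3 CPM in Cd4-side cells (ratio 20.4, 9.41 to 52.4), in 11 of 14 and 3 of 34 cells. Without the Cd4-side cell with the most *Nkg7* UMIs, 5 of 7, the ratio was 68.9 (18.4 to 579). It was 14.7 (6.63 to 38.3) without the Cd8-side cell with the most, 23 of 74. The chemokine gene *Ccl5* had 2631 and 191 CPM (ratio 13.8, 9.59 to 20.3), but its UMIs came from 4 of 14 and 8 of 34 cells. One Cd8-side cell held 147 of 243 *Ccl5* UMIs, and the ratio was 5.82 (3.90 to 8.87) without it and 24.2 (15.2 to 40.9) without the Cd4-side cell with the most. *Ly6c2*, whose reads may be shared with the paralog *Ly6c1*, had 59 UMIs in 7 Cd8-side cells and none in Cd4-side cells. *Dapl1*, a gene of naive T cells, had 530.5 and 78.7 CPM (ratio 6.74, 3.66 to 13.2). The *Dapl1* ratio was 11.3 (5.31 to 27.7) without the Cd4-side cell with the most UMIs. It was 5.53 (2.91 to 11.1) without the Cd8-side cell with the most. *Ccr7*, the receptor that leads T cells to lymph nodes, was detected in 8 of 14 Cd8-side cells and in 8 of 34 Cd4-side cells. These are sums over cells of 1 library, so the intervals hold counting error only.

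**Figure D3:**
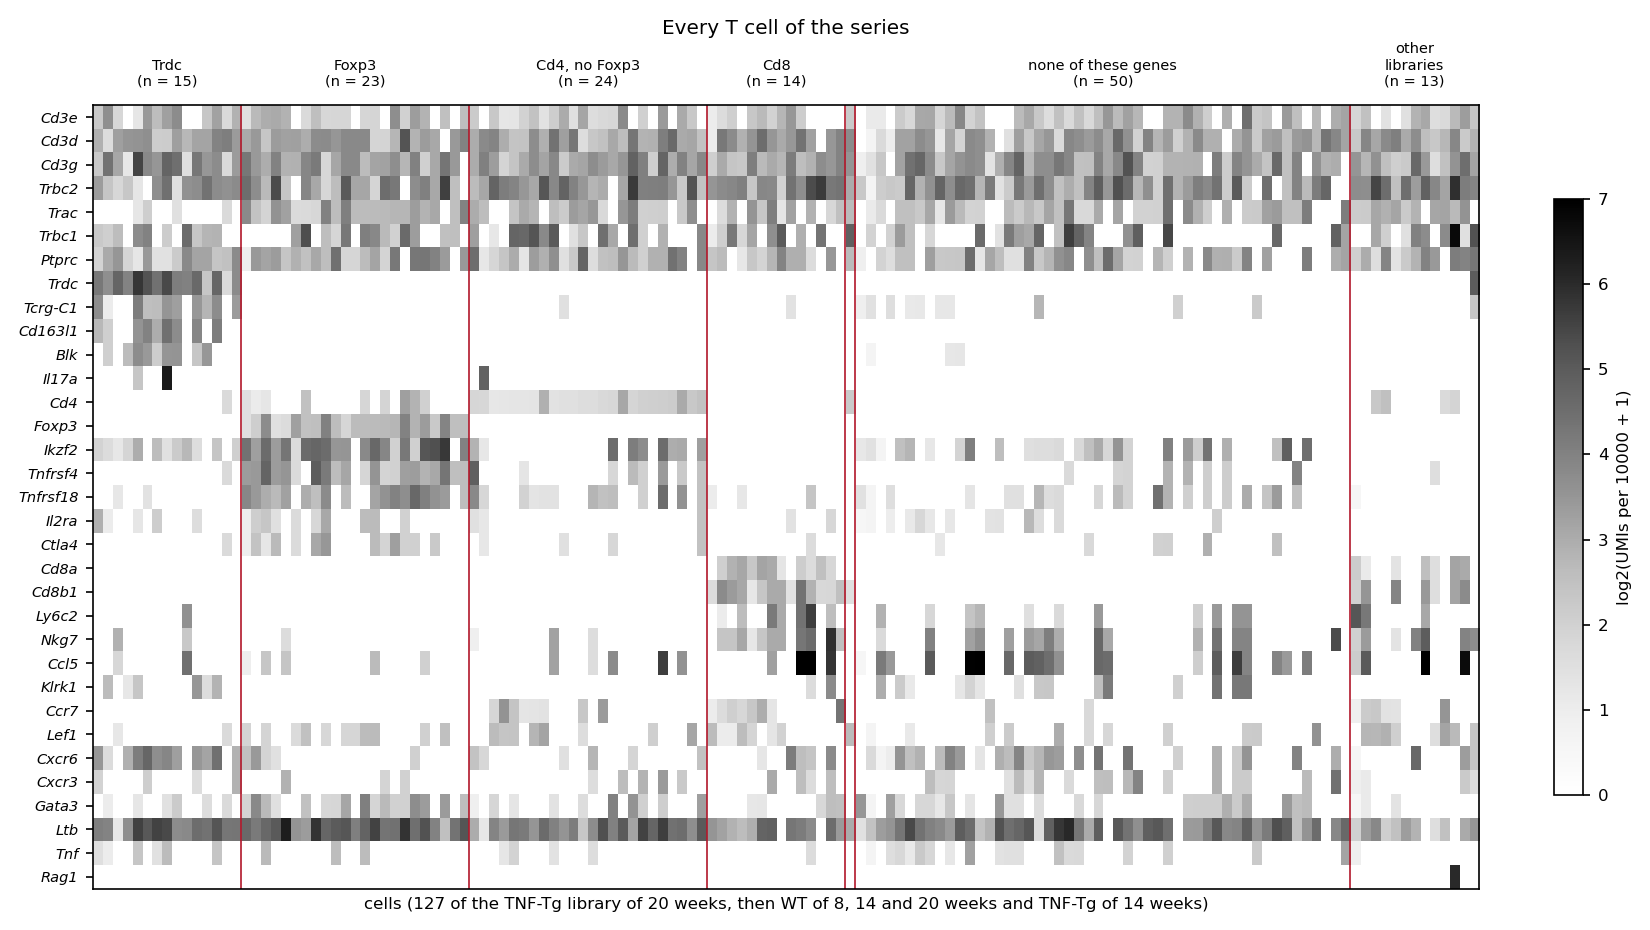
UMIs of each gene scaled to the UMIs of the cell, on a log2 scale, for 33 genes (rows) in every T cell (columns), with the TNF-Tg library of 20 weeks grouped by detection of *Trdc*, *Foxp3*, *Cd4*, and *Cd8* genes, followed by the 13 T cells of other libraries. Of 23 *Foxp3* cells of the TNF-Tg library of 20 weeks, 21 hold *Ikzf2*, 21 *Tnfrsf4*, and 18 *Tnfrsf18*, and of 15 *Trdc* cells, 9 hold *Cd163l1*, 9 *Blk*, and 4 *Trac*.

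*Foxp3*, the transcription factor that defines regulatory T cells (chromosome X, 7573644 to 7595245), was detected in 23 T cells (18.1%, 11.8% to 25.9%), 9 of them with *Cd4* and none with a *Cd8* gene or *Trdc*. It was in 0.0491% of endothelial barcodes. After thinning to 1000 UMIs, 7.87% of T cells held it. Of the 23, 22 held *Trac*, 21 *Ikzf2*, 21 *Tnfrsf4*, 18 *Tnfrsf18* (GITR), 13 *Ctla4* (an inhibitory receptor), 10 *Il2ra* (the high-affinity interleukin-2 receptor chain), and 15 *Izumo1r*. Among the 104 T cells without *Foxp3*, *Trac* was detected in 71, *Ikzf2* in 48, *Tnfrsf4* in 17, *Tnfrsf18* in 39, *Ctla4* in 12, *Il2ra* in 23, and *Izumo1r* in 14. In CPM, *Tnfrsf4* was 10.2 times (7.26 to 14.5) and *Ctla4* 11.7 times (5.81 to 24.8) as high in cells with *Foxp3*. A single cell without *Foxp3* held 32 of the 55 *Tnfrsf4* UMIs of that group, and without this cell the ratio was 24.0 (15.1 to 39.6). It was 8.85 (6.18 to 12.7) without the *Foxp3* cell with the most *Tnfrsf4* UMIs, 19 of 96. *Irf4*, a transcription factor of activated and effector regulatory T cells, had 11 UMIs in 7 of the cells with *Foxp3* and none in the others.

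Genes known from effector and tissue regulatory T cells were found among the *Foxp3* cells. *Il1rl1*, the interleukin-33 receptor gene, was in 9 of 23 and *Klrg1* in 8 of 23, against 6 and 3 of the 104 others. *Gata3*, a transcription factor shared by type 2 T cells and tissue regulatory T cells, was in 17 of 23 and 46 of the 104 others, and *Itgae*, the integrin alpha E gene, in 8 of 23 and 6 of the 104 others. *Il10* was at 0 in all T cells. *Areg*, a growth factor gene linked to repair, had 24 UMIs in 3 T cells, 22 of them in a single cell. Over the regulatory T cell list, 9 of 12 genes were higher by the fold of 4 than in endothelial barcodes, and none was lower.

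*Ikzf2* was wider than *Foxp3*, with 69 T cells (54.3%, 45.3% to 63.2%), 48 of them without *Foxp3*. It was detected in 18 of 34 Cd4-side cells, 0 of 14 Cd8-side cells, and 12 of 15 cells with *Trdc*. All 9 Cd4-side cells with *Foxp3* were among the 18.

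Gamma-delta T cell genes marked a further group. *Trdc*, the delta chain constant gene (chromosome 14, 54142851 to 54148868), had 207 UMIs in 15 T cells (11.8%, 6.76% to 18.7%) and up to 40 UMIs in a cell, and the share was 11% after thinning. Among T cells with no endothelial, mesenchymal, or C1q macrophage marker gene, it was 7.46% (5 of 67). Only 4 of the 15 held *Trac*, against 89 of the 112 other T cells, and 1 held *Cd4*, none a *Cd8* gene, and none *Foxp3*. All 15 held *Cd247*, and few held the surface receptors *Cd5* (1 of 15) and *Cd6* (0 of 15). *Lck* was in 4 of 15 and *Cd2* in 5 of 15, against 81 and 78 of the 112 others. The gamma constant genes *Tcrg-C1*, *Tcrg-C4*, and *Tcrg-C2* were in 11 of 15, 9 of 15, and 5 of 15. The values for *Tcrg-C1* and *Tcrg-C2* are uncertain, because these genes are near-identical copies. Of the 112 T cells without *Trdc*, 12 held *Tcrg-C1*.

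*Cd163l1* (SCART1, a scavenger receptor of gamma-delta T cells) had 64 UMIs in 9 T cells, all of them with *Trdc*. The delta variable gene *Trdv4* was in 10 T cells, 9 with *Trdc*, and *Tcrg-V6* in 6, 5 with *Trdc*. *Blk*, a kinase gene of interleukin-17-producing gamma-delta T cells, was in 9 of 15 cells with *Trdc* and 3 of 112 without it. *Il17a* (chromosome 1, 20730905 to 20734496) had 71 UMIs in only 3 T cells, with 47, 21, and 3 UMIs, and 2 of the 3 held *Trdc*. *Il22* was at 0 and *Il17f* at 1 UMI. Cells with *Trdc* also held *Cxcr6* (12 of 15), *Il18r1* (11 of 15), and *Ccr2* (8 of 15), and none held *Ccr7*.

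**Figure D4:**
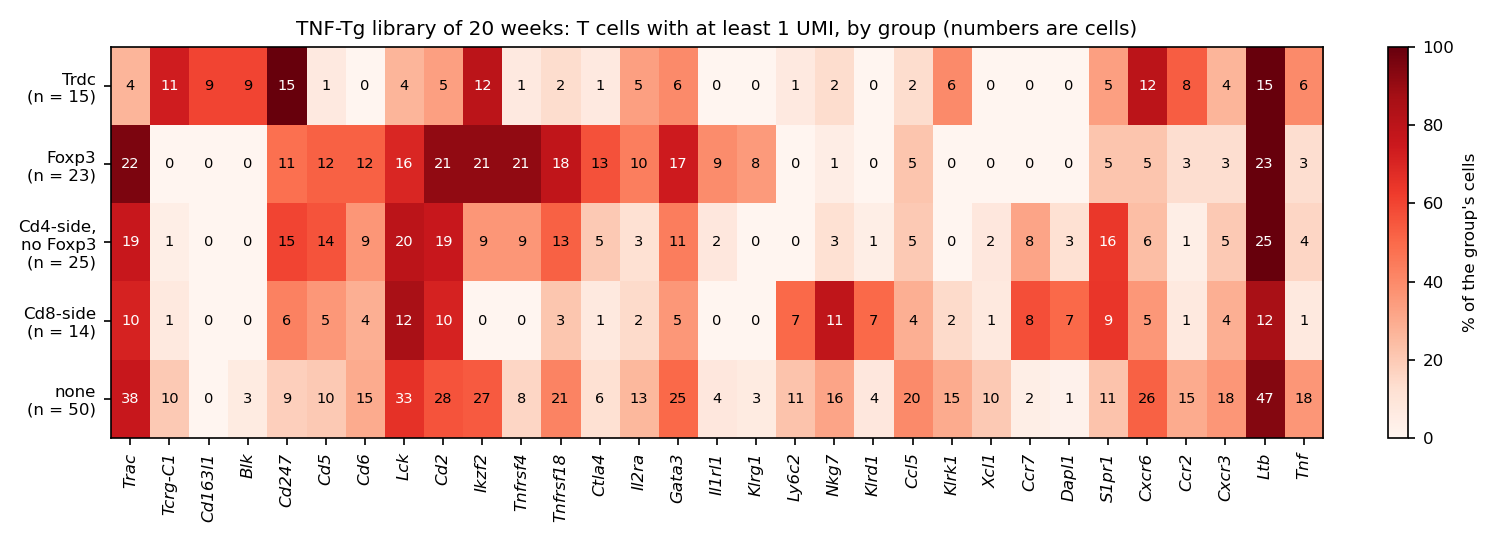
Number of T cells with at least 1 UMI of each gene (numbers) and the percentage of the group (color) in the TNF-Tg library of 20 weeks, for cells with *Trdc*, with *Foxp3*, Cd4-side without *Foxp3*, Cd8-side, and with none of these genes. A single cell with both *Trdc* and *Cd4* is counted in both rows, and *Cd163l1* is at 9 of the 15 *Trdc* cells and at 0 in the other groups shown.

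The 50 T cells with none of *Cd4*, *Cd8a*, *Cd8b1*, *Foxp3*, and *Trdc* had a median of 4051 UMIs. *Trac* was found in 38 of them, *Ikzf2* in 27, *Cxcr6* in 26, *Ccl5* in 20, *Cxcr3* in 18, and *Klrk1*, an activating receptor gene, in 15, while *Ccr7* was found in 2. *Xcl1*, a chemokine gene, was in 10 of them and in 3 other T cells.

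Variable gene segments were captured in a minority of T cells, as reads came from the 3′ ends of transcripts. At least 1 *Trbv* gene was detected in 35 T cells and at least 1 *Trav* gene in 17. Of 35 *Trbv* genes listed, 14 had a UMI. The most frequent, *Trbv26*, was in 7 cells and *Trbv19* was in 5. *Traj18*, used in the receptor of invariant natural killer T cells, was in 3 cells, and *Zbtb16*, their transcription factor gene, in 9.

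Genes of tissue retention and of recirculation were both detected among the T cells. *Cxcr6* (chromosome 9, 123806475 to 123811760), a receptor of T cells that stay in tissues, was detected in 54 (42.5%, 33.8% to 51.6%) at 358 CPM (314 to 406) and in 0.196% of endothelial barcodes. *Rgs1* was in 54 and the early activation and retention gene *Cd69* in 46 (36.2%). *Itgae* was in 14, and *Zfp683* (Hobit), a transcription factor of resident memory T cells, was at 0. For recirculation, *Ccr7* was in 18 (14.2%) and *Lef1* in 40 (31.5%), with *Klf2* in 63 and *S1pr1* in 45. *Cxcr6* and *Ccr7* were found together in 1 cell. *Klf2* and *S1pr1* are also endothelial genes, at 73.9% and 94.5% of endothelial barcodes. Other chemokine receptor genes were *Cxcr3* in 34 cells and *Ccr2* in 28, and *S1pr5* was at 0. Of the adhesion list, 7 of 10 genes were higher by the fold of 4 than in endothelial barcodes, among them the P-selectin ligand gene *Selplg* (70.1% of T cells) and the integrin genes *Itgb7* (64.6%), *Itgal* (43.3%), and *Itga4* (39.4%), whereas *Itga6* and *Icam1* were in 74.3% and 65.7% of endothelial barcodes and in 14.2% and 18.1% of T cells.

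At least 1 of the 13 cytotoxic genes was detected in 85 of 127 T cells. Over all function lists, such counts ran from 23 for unconventional T and natural killer cell genes to 127 for leukocyte and T cell genes. The cytotoxic genes were not confined to 1 group, with *Ctsw* in 7 and *Ccl5* in 5 of the 23 cells with *Foxp3*. *Ccl5* had 779 UMIs in 36 T cells (28.3%, 20.7% to 37.0%), and 5 cells held 70.5% of them. *Nkg7* was in 33 (26.0%) and *Ctsw*, a cathepsin gene, in 42 (33.1%). *Nkg7* and *Ccl5* were found together in 24. Granzyme and perforin genes were rare, with *Prf1* in 6 cells and *Gzmb* and *Gzmk* in 2 each. *Gzma* had 161 UMIs, of which a single cell held 158. Of the 13 cytotoxic genes, 8 passed the minimum level and all 8 were higher by the fold of 4.

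Helper cytokines were few. *Ifng*, the gene for interferon-gamma, was detected in 8 T cells (6.30%, 2.76% to 12.0%) and its regulator *Tbx21* in 12, while the interleukin-18 receptor gene *Il18r1* was in 46 and *Stat4* in 37. *Il4* was in 3 cells, *Il13* in 1, and *Il5* in 0, beside *Gata3* in 63 (49.6%). *Il21* and *Ccl4* were at 0, and *Csf2* was in 9 cells. Of 17 cytokine genes, 12 had a UMI in the T cells and 5 had none, beside 12721 of all 32285 genes with a UMI. Of the 8 cytokine genes that passed the minimum level, 6 were higher by the fold of 4 and 1 was lower. Among all genes compared, 7.15% were higher and 16.2% lower. Genes of follicular helper cells included *Icos* in 37 cells and *Pdcd1* in 19, and *Cxcr5* in 7. On the list of inhibitory receptors and exhaustion, *Tox* was in 36 cells and *Ctla4* in 25. The genes of the list other than *Tox*, *Ctla4*, and *Pdcd1* were in fewer cells. *Cd160* and *Cd200* were in 8 each, *Entpd1* in 6, *Btla* in 4, *Lag3* and *Tigit* in 2 each, *Havcr2* in 1, and *Cd244a* in 0. Of activation genes, *Cd44* was in 52 and the interleukin-2 receptor beta chain gene *Il2rb* in 50.

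The TNF family comprises TNF itself, related ligands, and their receptors. The mouse gene *Tnf* was detected in 32 T cells (25.2%, 17.9% to 33.7%) at 80.3 CPM (60.5 to 105), against 9.03% of B cell, 16.3% of C1q macrophage, and 2.94% of endothelial barcodes. Human transcripts of the transgene are not among the listed mouse genes and were not measured. *Ltb* (lymphotoxin beta, chromosome 17, 35194439 to 35196320), a ligand that organizes lymphoid tissue, was in 122 T cells (96.1%) at 1850.4 CPM (1749.9 to 1955), in 88.3% of B cell and 7.46% of endothelial barcodes. *Lta*, its partner, was in 9, with 16 of 26 UMIs in a single cell. Further ligand genes were *Tnfsf8* (CD30 ligand) in 25 cells, *Tnfsf11* (RANKL) in 17, and *Tnfsf14* (LIGHT) in 14.

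The TNF receptor genes of T cells differed from those of endothelial barcodes. *Tnfrsf1a* (TNFR1, the receptor widespread in tissue cells) was in 7 T cells (5.51%, 2.24% to 11%) and in 65.3% of endothelial barcodes, and after thinning to 1000 UMIs in 0.787% and 12.4%. *Tnfrsf1b* (TNFR2, the receptor of lymphocytes) was in 25 (19.7%) and 6.62%, and after thinning in 5.51% and 0.860%. Of the 25, 11 were among the 23 cells with *Foxp3*. The NF-kB feedback genes *Nfkbia* and *Tnfaip3* were in 60.6% and 22.0% of T cells and in 94.3% and 50.6% of endothelial barcodes. Of the 17 TNF family genes that passed the minimum level, 13 were higher in T cells by the fold of 4 and 2 were lower.

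The BMP and TGF-beta pathway, in which loss of the receptor BMPR2 is known to cause pulmonary hypertension, was unevenly represented. *Bmpr2* was detected in 6 T cells (4.72%, 1.75% to 10.0%) and 92.1% of endothelial barcodes, and *Id1*, a BMP target, in 5 (3.94%) and 81.5%. By contrast, *Id2*, which T cells use in effector differentiation, was in 76 (59.8%) at 559 CPM (505 to 618) against 81.2 CPM in endothelial barcodes. *Tgfb1* was in 50 T cells, *Tgfbr2* in 48, and *Smad7*, a feedback inhibitor, in 67. Of 15 pathway genes compared, 1 was higher by the fold of 4 and 4 were lower, with a median log2 ratio of -0.86. Among all genes compared, 7.15% were higher and 16.2% lower, with a median of -0.32.

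**Figure D5:**
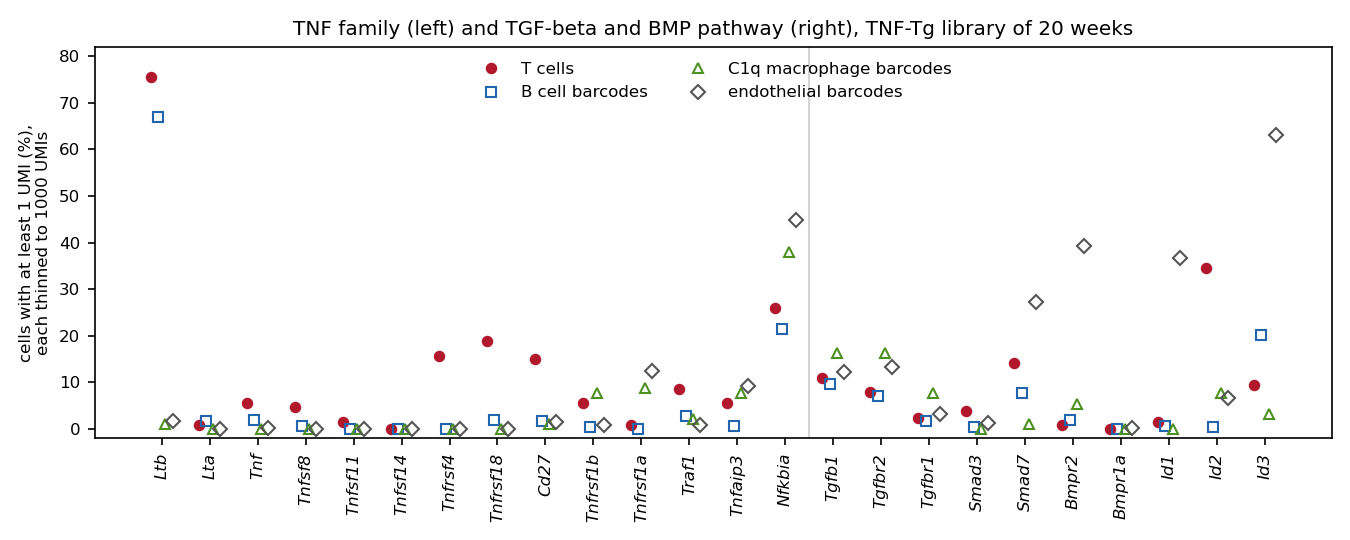
Percentage of cells with at least 1 UMI after thinning each to 1000 UMIs, for TNF family genes and for TGF-beta and BMP pathway genes, in T cells, B cell, C1q macrophage, and endothelial barcodes of the TNF-Tg library of 20 weeks. *Ltb* stands at 75.6% of T cells, *Tnfrsf1a* and *Bmpr2* at 0.787%, and *Id2* at 34.6%.

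Among all genes compared, 16.2% were lower in T cells than in endothelial barcodes by the fold of 4 and 7.15% were higher. Of 12 interferon-stimulated genes, 3 were lower and 1 was higher. The higher gene was *Ifi27l2a*, at 572 CPM (517 to 632) in 63 T cells against 137 CPM in endothelial barcodes. *Isg15* was in 13.4% and 39.9%, and *Rsad2* in 1 T cell and 8.54%. Proliferation genes were rare in T cells, with *Mki67* in 4 cells (3.15%, 0.865% to 7.87%) and *Top2a* in 5, and a single cell held 14 of the 21 *Mki67* UMIs. Early response genes of handling and activation ranged from *Jund* in 116 and *Junb* in 110 T cells to *Hspa1a* in 4 and *Atf3* in 2, with a median of 29.1% of T cells a gene. Of this list of 10 genes, 9 passed the minimum level, and 1 of the 9 was higher by the fold of 4.

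The 11 T cells of the WT libraries are described cell by cell, with no test. In the WT library of 8 weeks, 3 of 6 T cells held *Cd8a* and *Cd8b1*, 2 held *Cd4*, and 5 held *Ccr7*. In that of 14 weeks, 2 of 4 held *Cd8a* and *Cd8b1* and 1 held *Cd4*. One of these had 138 UMIs of *Ccl5* and 12 of *Nkg7*, and another had 8 UMIs of *Cxcr6*. Over the 11 cells, *Ccr7* was detected in 6 (54.5%), against 14.2% of the T cells of the TNF-Tg library of 20 weeks. *Cxcr6* was in 2 (18.2%) against 42.5%.

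None of the 11 WT cells held *Foxp3*, *Trdc*, *Ikzf2*, *Ctla4*, or *Il2ra*. A count of 0 of 11 allows a share of about 27.3% by counting error alone, taking 3 counts as the limit for 0. The 11 cells came from 3 libraries and the other side is 1 library, so no difference between genotypes was read from these counts. *Tnfrsf4* was in 1 of 11 with 1 UMI, and *Ltb* in 9. Only the TNF-Tg library of 20 weeks held at least 10 T cells, so no model of gene expression between genotypes could be fitted over libraries.

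The single T cell of the WT library of 20 weeks had genes that were absent or rare in the others. It held 24 UMIs of *Rag1*, 2 of *Rag2*, 5 of *Dntt*, and 1 of *Ptcra*, genes by which developing thymocytes rearrange and assemble their receptors, together with 1 UMI of *Cd4*, 3 of *Cd8a*, and 3 of *Cd8b1*, and 40 of *Trbc1*. *Rag1*, *Rag2*, and *Ptcra* were at 0 in all 127 T cells of the TNF-Tg library of 20 weeks, and *Dntt* had 3 UMIs in 1 of them. The 2 T cells of the TNF-Tg library of 14 weeks differed from each other. The first held 4 UMIs of *Cd8a*, 7 of *Cd8b1*, 58 of *Ccl5*, and 5 of *Cxcr6*, and the second held 15 UMIs of *Trdc* and none of *Trac*, with 2 of *Cxcr6*.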

How the data were processed

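Lungs were digested and sorted as described above, and single-cell RNA-seq libraries were made by 10x Genomics 3′ chemistry. The authors deposited filtered matrices of raw UMI counts for 32285 genes, aligned to mm10 with Cell Ranger. The submitters' processing notes give version 5.0.0, and the file headers give 5.0.0 at 8 weeks and 6.0.1 at 14 and 20 weeks. The T cells and gene lists were chosen with earlier results of these data known. No doublet caller was run, and the limits on B cell and endothelial genes stood in for one. From the deposited counts, sums, CPM, and shares were computed with Python 3.11.15, numpy 2.4.6, scipy 1.17.1, and pandas 2.3.3. The code of the permutation test was checked on values with known answers. Intervals were exact (Clopper-Pearson or Poisson) at the 95% level. Shares were compared between genotypes over libraries by a two-sided exact permutation test. The planned count model across genes was not fitted, because a single library had at least 10 T cells. Named genes were the 20 leading genes of T cells and the 10 genes with the largest ratio in each direction between T cell groups, at 100 CPM or more, with members of fixed lists. Exceptions named after their values were seen are the genes of the few T cells outside the TNF-Tg library of 20 weeks. Alternatives covered the limits of the rule, the quality filters, thinning to 1000 UMIs, and left-out libraries. Some results are not reported here.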

Additional observations from a re-analysis of the deposited data

Results flagged for a closer look

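The difference in T cell share between TNF-Tg and WT had opposite signs at different ages. TNF-Tg minus WT was -0.0933 percentage points at 8 weeks, -0.0317 points at 14 weeks, and 1.99 points at 20 weeks. Each age had 1 library per genotype, and the difference between ages was not tested.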

How the results depend on the processing

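The difference in T cell share between TNF-Tg and WT kept its direction under all 10 alternative filters, limits, and pairings run. It lay between 0.427 and 0.705 percentage points, with exact permutation p from 0.7 to 0.9 where unpaired. Paired by age, the exact permutation p was 1, with 0.25 the smallest possible, and pairing cannot change the difference itself. Leaving out 1 library at a time gave -0.0407 to 0.960 points. The sign reversed without the TNF-Tg library of 20 weeks, and the value was 0.960 without that of 8 weeks and 0.943 without that of 14 weeks. The T cells of the TNF-Tg library of 20 weeks numbered 85 to 143 by setting. Thinning to 1000 UMIs lowered the Cd4-side share to 11% and the share with *Foxp3* to 7.87%, as fewer UMIs leave fewer cells with a detected gene. The other 18 of 20 alternatives for the T cell groups stayed within the interval of the reported share. One of them, leaving out T cells with any endothelial, mesenchymal, or C1q macrophage marker gene, was added after seeing the data and gave 7.46% with *Trdc* (5 of 67). The ratios between T cell groups for *Nkg7*, *Ccl5*, *Dapl1*, *Ctla4*, and *Tnfrsf4* without the cell with the most UMIs were also added after seeing the data, and all stayed above 1. So were the Cd4-side bounds for *Ikzf2*, *Tnfrsf4*, *Foxp3*, and *Izumo1r* and the *Rgs1* ratio, which stayed above 1 too. The count model across genes and its alternatives were not run.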

Other observations

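*Epcam*, the gene for the CD326 protein selected against in the sort, was detected in 11 T cells (8.66%, 4.4% to 15%) of the TNF-Tg library of 20 weeks, 5 of them with *Foxp3*. It was in 9.03% of B cell, 1.09% of C1q macrophage, and 0.147% of endothelial barcodes. The matrix gene *Mgp* was in 27 T cells (21.3%) and 31.5% of endothelial barcodes, and 1 T cell held 88 of its 189 UMIs. *Gata3* and *Il1rl1* were found together in 15 T cells, of which 6 had no *Foxp3* and 3 had neither *Foxp3* nor *Trac*. Both genes are also on the list of type 2 innate lymphoid cell genes, on which *Il13* was in 1 cell and *Il5* in 0. A single member with 23387 UMIs held 24 of the 150 *Gata3* UMIs. It had 2 UMIs of *Cd3g*, 9 of *Trbc2*, and none of *Cd3e*, *Cd3d*, *Trac*, and *Trbc1*. Whether any member was an innate lymphoid cell was not tested.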
